A study of Mus musculus with 23 samples.

Results

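The neutrophil matrix metalloproteases *Mmp8*, *Mmp9* and *Mmp25*, the ADAM proteases *Adam8*, *Adam10* and *Adam17*, and the metalloprotease inhibitors *Timp1* and *Timp2* were followed through all groups of the series. The genes were chosen by name, and all 8 were found by gene identifier among the 21878 genes of the sorted neutrophil tables and by symbol among the 55335 genes of the whole-lung table. Bulk RNA-Seq was available from 3 experiments with 23 libraries. In the tissue comparison, neutrophils sorted as CD45+CD11b+Ly6G+ cells came from perfused lung, peripheral blood (PB) and bone marrow (BM) of WT mice, with 3 libraries each. In the *Piezo1* experiment, the same gate was applied to WT and *Piezo1*-cKO mice, with 2 libraries each from lung and PB. The methods describe enzymatic digestion at body temperature for lung and none for PB and BM. They also describe negative selection before sorting for PB and lung. Tissue and its processing therefore cannot be told apart where sorted cells of different tissues are compared. The whole-lung experiment held 3 libraries labelled PMN deletion, from lungs of mice given an antibody against Ly6G, and 3 control libraries from mice given an isotype antibody. For this depletion the methods give 1 or 2 injections, the last 1 day before analysis.

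*Piezo1*-cKO mice carried floxed *Piezo1* alleles and an iCre driven by *Vav1*, which is active throughout the hematopoietic lineage, so the deletion was not limited to neutrophils. The methods describe young adult C57BL/6J mice of either sex, and the labels give no age or sex for single libraries. No source used here says whether same-numbered libraries share an animal or whether animals were pooled, so the p values below measure the spread between libraries, which may be technical. Levels are given as FPKM, the fragments on a gene divided by its length and by the depth of the library, a scale on which genes can be set side by side. Whole reads were recovered from the FPKM of the 17 sorted libraries, and a library held 16480330 to 19321153 reads where tissues were compared and 9608411 to 15014346 where genotypes were. All 7 neutrophil markers had a mean of at least 1 FPKM in each sorted group, and the 5 endothelial markers summed to at most 0.550 FPKM in any sorted library. PB replicate 3 of the tissue comparison stood apart from the other two PB libraries, with a chi-square per degree of freedom of 24.6 and 40.9 against 4.72 between the other two.

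Matrix metalloproteases are zinc enzymes that cleave extracellular matrix, and neutrophils make several of them during maturation in BM and carry them stored in granules. ADAM proteases sit in the plasma membrane and release the outer parts of other membrane proteins, a process called shedding, while TIMPs are secreted proteins that block the active site of metalloproteases. MMP8 is the neutrophil collagenase, MMP9 is gelatinase B and the namesake of gelatinase granules, and MMP25 is anchored in the neutrophil membrane. ADAM17 releases TNF and L-selectin, ADAM10 cleaves Notch receptors among many others, and ADAM8 is a protease of myeloid cells that activates itself.

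The genes lie apart in the genome (GRCm38): *Mmp8* at chr9:7558456-7568485, *Mmp9* at chr2:164940780-164955850, *Mmp25* at chr17:23628311-23645277, *Adam8* at chr7:139978932-139992562, *Adam10* at chr9:70678997-70780229, *Adam17* at chr12:21323509-21373632, *Timp1* at chrX:20870166-20874735 and *Timp2* at chr11:118301069-118355740. RefSeq promoter windows of GRCm38.p6 were at hand for 7 of the 8 genes, without *Mmp9*. The 250 bases before the transcription start are shown for *Mmp8* and *Mmp25*, the genes with the largest falls from BM to lung, and for *Adam8*, the gene that was higher in lung. They were searched on both strands for an AP-1 motif (TGANTCA), an NF-kB motif (GGGNNTTCC), a C/EBP motif (TTGCNNAA) and a PU.1 motif (GAGGAAGT), and matches are in capitals. The strand of the gene is plus for *Mmp8* (chr9:7558179-7558428) and minus for *Mmp25* (chr17:23645270-23645519) and *Adam8* (chr7:139992563-139992812).
Mmp8: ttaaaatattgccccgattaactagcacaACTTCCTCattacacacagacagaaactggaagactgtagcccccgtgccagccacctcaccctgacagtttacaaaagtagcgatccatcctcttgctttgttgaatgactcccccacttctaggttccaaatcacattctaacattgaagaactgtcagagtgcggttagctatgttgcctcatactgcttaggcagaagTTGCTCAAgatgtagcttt
Mmp25: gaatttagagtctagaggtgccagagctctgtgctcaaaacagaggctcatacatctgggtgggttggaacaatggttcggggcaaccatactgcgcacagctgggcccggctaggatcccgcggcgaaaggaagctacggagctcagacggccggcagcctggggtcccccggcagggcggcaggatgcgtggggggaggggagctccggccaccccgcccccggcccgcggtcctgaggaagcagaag
Adam8: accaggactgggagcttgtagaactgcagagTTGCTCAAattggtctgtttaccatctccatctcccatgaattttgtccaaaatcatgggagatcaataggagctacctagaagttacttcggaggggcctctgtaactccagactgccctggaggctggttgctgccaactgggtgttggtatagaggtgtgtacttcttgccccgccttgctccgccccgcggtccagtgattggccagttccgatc
The *Mmp8* window held a PU.1 match on the reverse strand 221 to 214 bases before the start and a C/EBP match 19 to 12 bases before it. The *Adam8* window held 1 match, to the C/EBP motif with the same letters, 219 to 212 bases before the start. No match overlapped another, and the windows of *Mmp25*, *Adam10*, *Adam17*, *Timp1* and *Timp2* held none of these letters. Of 32851 RefSeq promoter windows of the same length, 9.56% held the C/EBP motif, 2.44% the PU.1 motif, 6.75% the AP-1 motif and 4.98% the NF-kB motif. A match describes the letters only.

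*Mmp9* had the highest level of the 8 genes in BM and PB neutrophils of the tissue comparison, and *Timp1* the lowest in all 3 tissues. In BM the order of mean levels was *Mmp9* (2762 FPKM), *Mmp8* (2083 FPKM), *Adam8* (335 FPKM), *Mmp25* (210 FPKM), *Timp2* (99.5 FPKM), *Adam10* (24.2 FPKM), *Adam17* (15.6 FPKM) and *Timp1*, and no neighbours in this order overlapped between libraries. In PB *Mmp8* and *Adam8* came next after *Mmp9* with overlapping libraries. In lung *Adam8* stood first with 809 ± 15.2 FPKM (SD, n = 3), followed by *Mmp9* with 778 ± 7.93 FPKM, and their libraries did not overlap. Libraries overlapped in lung between *Timp2* and *Mmp25* and between *Adam10* and *Adam17*. The MMP genes together took 1.02 ± 0.0310% of the summed FPKM in BM, 0.470 ± 0.0241% in PB and 0.239 ± 0.00440% in lung (SD, n = 3 each). The 3 ADAM genes took 0.0756 ± 0.00356% in BM, 0.0790 ± 0.0110% in PB and 0.201 ± 0.00632% in lung, so in lung the ADAM share came near the MMP share.

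**Figure D1:**
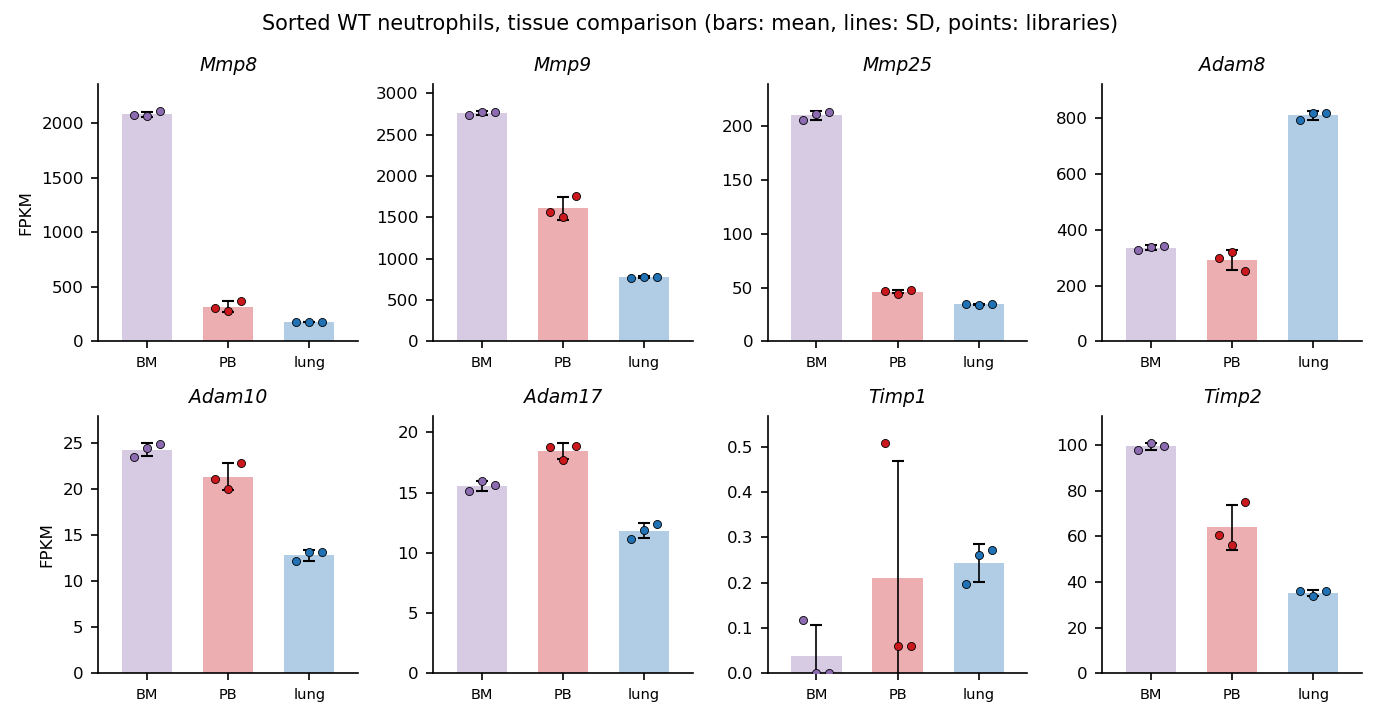
FPKM of the 8 genes (vertical axis, each panel with its own scale from 0) in sorted WT neutrophils from BM, PB and lung (horizontal axis). Bars are means, lines are SDs and points are the 3 libraries of each tissue. The MMP genes were highest in BM, *Adam8* was highest in lung, and *Timp1* was at most 0.508 FPKM in every library.

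The MMP genes were lower in circulating and lung neutrophils than in BM. *Mmp8* was at 2072, 2067 and 2110 FPKM in the BM libraries, at 302, 283 and 374 FPKM in the PB libraries and at 181, 180 and 178 FPKM in the lung libraries. Every BM library lay above every PB library, and every PB library above every lung library. *Mmp8* fell 6.52-fold from BM to PB and 11.6-fold from BM to lung by the ratio of mean FPKM. On log2(FPKM + 1), the scale of the tests, the difference was -2.71 ± 0.10 for PB against BM (SE, adjusted p = 1.41e-07) and -3.53 ± 0.0175 for lung against BM (adjusted p = 1.49e-15).

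*Mmp25*, the membrane-anchored member, had a like course at a lower level. It was at 206, 212 and 213 FPKM in BM, at 47.0, 44.4 and 47.4 FPKM in PB and at 34.4, 33.6 and 35.1 FPKM in lung. The tissues did not overlap, and most of the difference lay between BM and PB. It fell 4.54-fold from BM to PB (log2 difference -2.16 ± 0.0498, adjusted p = 1.76e-08) and 6.12-fold from BM to lung (log2 difference -2.58 ± 0.0283, adjusted p = 2.71e-13).

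*Mmp9* kept a larger part of its BM level. It was at 2735, 2772 and 2779 FPKM in BM, at 1562, 1504 and 1763 FPKM in PB and at 769, 781 and 784 FPKM in lung. The 3 tissues again did not overlap. From BM to PB it fell 1.72-fold (log2 difference -0.78 ± 0.0729, adjusted p = 2.62e-05), which did not pass the fold threshold, and from PB to lung it fell 2.07-fold (log2 difference -1.04 ± 0.0686, adjusted p = 2.61e-06). Without PB replicate 3, its highest PB library, the PB to lung difference was -0.98 and was no longer called. Against BM, *Mmp9* in lung fell by 1.83 on the log2 scale (SE 0.0155, adjusted p = 4.53e-14). The ratio of *Mmp9* to *Mmp8* within a library, which no scaling between libraries touches, was 1.33 ± 0.0131 in BM, 5.07 ± 0.312 in PB and 4.33 ± 0.0772 in lung (SD, n = 3 each).

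*Adam8* was the member that rose in lung. It was at 326, 340 and 340 FPKM in BM, at 300, 320 and 252 FPKM in PB and at 791, 818 and 817 FPKM in lung. All 3 lung libraries lay above all BM and PB libraries, and the PB libraries lay below those of BM. It rose 2.79-fold from PB to lung (log2 difference 1.48 ± 0.0880, adjusted p = 1.48e-06) and 2.41-fold from BM to lung (log2 difference 1.27 ± 0.0234, adjusted p = 1.11e-11), whereas PB against BM gave -0.21 ± 0.0887 (adjusted p = 0.0595). The ratio of *Adam8* to *Mmp9* within a library was 0.121 ± 0.00191 in BM, 0.182 ± 0.0360 in PB and 1.04 ± 0.00964 in lung (SD, n = 3 each), with no overlap between lung and the other tissues.

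The general sheddases *Adam10* and *Adam17* were lower in lung on the deposited scale and took another place once libraries were rescaled. *Adam10* was at 23.5, 24.4 and 24.9 FPKM in BM, at 21.1, 19.9 and 22.8 FPKM in PB and at 12.1, 13.1 and 13.2 FPKM in lung. *Adam17* was at 15.2, 15.9 and 15.6 FPKM in BM, at 18.8, 17.7 and 18.8 FPKM in PB and at 11.2, 11.9 and 12.4 FPKM in lung. For both genes every lung library lay below every PB and BM library. The log2 difference between lung and PB was -0.69 ± 0.0693 for *Adam10* and -0.60 ± 0.0636 for *Adam17* (adjusted p = 2.97e-05 and 3.91e-05), under the fold threshold. After rescaling by the median ratio between libraries these were -0.09 and -0.01, with adjusted p = 0.288 and 0.919. Within a library, *Adam8* stood 13.8 ± 0.134 times over *Adam10* in BM, 13.8 ± 2.55 times in PB and 63.2 ± 1.76 times in lung.

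Of the inhibitors, *Timp2* followed the MMP genes and *Timp1* was close to the limit of detection. *Timp2* was at 98.0, 101 and 99.6 FPKM in BM, at 60.5, 56.4 and 74.9 FPKM in PB and at 36.1, 33.8 and 36.1 FPKM in lung, with no overlap between tissues. It fell 2.82-fold from BM to lung (log2 difference -1.47 ± 0.0339, adjusted p = 5.67e-11). *Mmp9* exceeded *Timp2* by 27.8 ± 0.228 times in BM, 25.3 ± 1.62 times in PB and 22.0 ± 0.954 times in lung, a far narrower range than that of *Adam8* over *Mmp9*. *Timp1* drew 0 to 2 reads in the BM libraries, 1 to 8 in PB and 3 to 4 in lung, and did not pass the filter for testing. A count of 0 allows up to 3 reads, which corresponded on average to 0.176 FPKM in BM, a limit that covers counting error only.

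Counted together, 7 of the 8 genes passed the filter in each comparison of sorted cells, and a gene was called where the adjusted p was under 0.05 and the log2 difference was over 1 in size. For these 7 genes no pair of tissues overlapped, as was the case for 86.2% of all genes in lung against PB, 92.9% in lung against BM and 76.8% in PB against BM. In lung against PB 2 were called (*Adam8* higher, *Mmp9* lower), where 27.2% of the 7577 genes tested were called, so the share of members was near that of all genes. In lung against BM 5 were called (*Adam8* higher and *Mmp8*, *Mmp9*, *Mmp25* and *Timp2* lower) against 45.9% of 8236 genes, and the 4 lower ones against 36.0%. In PB against BM 2 were called, *Mmp8* and *Mmp25*, both lower, where 22.0% of 8237 genes were called and 14.1% were called lower. By the adjusted p alone 7, 7 and 6 members passed, where 85.5%, 92.6% and 73.1% of all genes did.

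The median gene was lower as well, near the members for lung against PB and less so in the comparisons with BM. The median log2 difference of all genes tested was -0.54 for lung against PB, -0.70 for lung against BM and -0.12 for PB against BM, and the median of the 7 members was -0.69, -1.47 and -0.64. Rescaling by the median ratio between libraries moved these medians of all genes to -0.01, -0.05 and -0.02, and the share of called genes that were higher from 28.5% to 66.9% for lung against PB and from 21.5% to 56.3% for lung against BM. After rescaling *Adam8* was at 2.11 for lung against PB and 2.08 for lung against BM. *Mmp8*, *Mmp25* and *Mmp9* were still lower in lung than in BM, at -2.72, -1.78 and -1.01, and all were still called. *Timp2* was at -0.67 and no longer called. For lung against PB, *Mmp9* was at -0.41 and no longer called, *Mmp8* at -0.19 and *Timp2* at -0.21, while *Mmp25* turned to 0.20 (adjusted p = 0.0124). *Adam17* turned to 0.39 for lung against BM (adjusted p = 4.77e-05). The fall of *Mmp8* and *Mmp25* from BM to PB was -2.60 and -2.05 after rescaling. The deposited values alone do not say which scale is right, because a bulk library cannot separate fewer transcripts per cell from a changed total of RNA per cell.

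**Figure D2:**
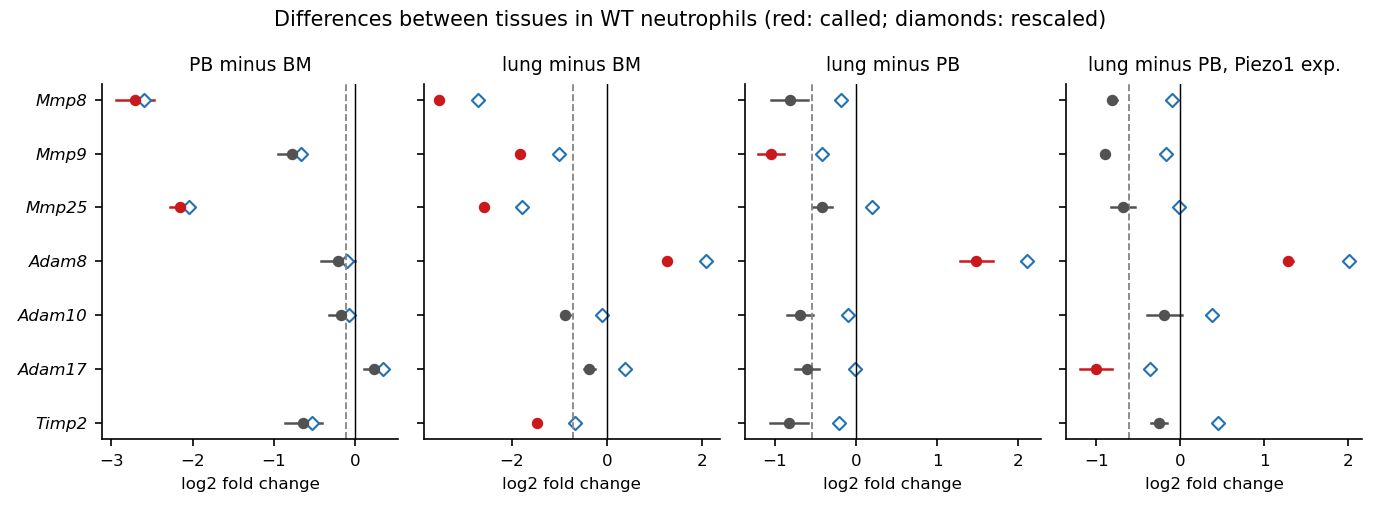
Log2 difference of the 7 tested genes (horizontal axis, on log2(FPKM + 1)) for PB minus BM, lung minus BM, lung minus PB and lung minus PB in WT mice of the *Piezo1* experiment. Filled points with lines are estimates with 95% confidence intervals (red where called), open diamonds are estimates after rescaling, and the dashed line is the median of all genes tested. *Adam8* lay right of 0 in all 3 comparisons with lung by either scale, and *Mmp8* and *Mmp25* lay far left of 0 in both comparisons with BM.

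Proliferation genes listed as markers of immature granulocytes were higher in BM. The 6 genes of that list (*Elane*, *Mpo*, *Prtn3*, *Ctsg*, *Mki67*, *Top2a*) summed to 33.7 to 35.4 FPKM in the BM libraries, 1.89 to 2.78 in PB and 2.65 to 3.59 in lung, with 3 of 6 at a mean of at least 1 FPKM in BM, 1 in PB and 2 in lung, and *Ctsg* at 0 in lung. The BM sum came mostly from *Mki67* (16.2 FPKM) and *Top2a* (15.8 FPKM). The granule protease gene *Prtn3* was at 1.498 FPKM in BM, 2.20 in PB and 1.23 in lung, and *Elane*, *Mpo* and *Ctsg* had means under 1 FPKM in BM. The part of these genes in the higher MMP levels of BM was not tested. The 8 macrophage and monocyte markers summed to 63.6 to 68.0 FPKM in BM, 156 to 171 in PB and 125 to 128 in lung, of which *Csf1r* made up 132.6 FPKM in PB and 97.4 in lung. *Csf1r* and *Adgre1* were called higher in lung and in PB than in BM, and *C1qa*, *C1qb* and *C1qc* lower, with *C1qb* at 5.23 FPKM in BM, 0.0169 in PB and 0.760 in lung. *C1qc* and *Marco* were at 0 in PB, and none of the 8 in lung. The part of these markers in the level of *Adam8* was not tested.

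Granule genes that accompany MMP9 split between tissues. Of the 10 genes listed with gelatinase granules and granule membranes, 9 were tested, and lung against BM called 3 higher and 4 lower. *Cd177*, which marks a subset of neutrophils, stood at 51.6 ± 0.116 FPKM in lung and 1591 ± 23.2 in BM (log2 difference -4.92, adjusted p = 4.42e-16), and *Lcn2*, a specific granule protein, at 1422 ± 48.5 and 10216 ± 329 (log2 difference -2.84, adjusted p = 1.31e-13). *Slc11a1*, a metal transporter of phagosomes and granules, was higher in lung, at 529 ± 14.0 against 102 ± 2.01 FPKM (log2 difference 2.37, adjusted p = 2.74e-13). The median log2 difference of the list was -0.69, beside -0.70 over all genes.

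Of 25 listed genes that encode known or proposed targets of shedding, 18 were tested for lung against PB, and 8 were called higher and 1 lower, where 7.75% of all genes were called higher and 19.5% lower. By the adjusted p alone 8 were higher and 7 lower, and the median log2 difference was 0.07 beside -0.54 over all genes. The list was chosen with earlier results of these data known, so these counts describe the listed genes and do not test for enrichment. *Icam1*, an adhesion molecule, stood at 214 ± 4.93 FPKM in lung and 11.5 ± 0.594 in PB (log2 difference 4.10, adjusted p = 9.11e-10). *Il1r2*, the decoy receptor for interleukin-1, stood at 1044 ± 16.7 and 111 ± 5.75 FPKM (3.22, adjusted p = 2.20e-09), *Trem1* at 856 ± 10.3 and 212 ± 5.27 (2.01, adjusted p = 1.28e-08) and *Tnf* at 134 ± 1.63 and 33.1 ± 6.89 (2.00, adjusted p = 2.99e-06). *Il6ra*, the interleukin-6 receptor, was the target called lower, from 97.4 ± 6.13 in PB to 40.1 ± 0.906 in lung (-1.26, adjusted p = 4.12e-07). After rescaling it was at -0.63, under the fold threshold. Transcript levels say nothing of whether these proteins were shed.

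Of 9 listed partners that carry ADAM proteases to the cell surface, 4 were tested for lung against PB and 1 was called, a share near that of all genes. The called gene *Frmd8*, which stabilizes ADAM17 together with its rhomboid-like carriers, fell from 43.4 ± 2.79 to 14.9 ± 0.955 FPKM (log2 difference -1.48, adjusted p = 4.41e-07, and -0.87 after rescaling). *Rhbdf2*, such a carrier, was at 62.7 ± 8.18 FPKM in PB and 58.3 ± 0.961 in lung. Among 10 proteases and receptors that activate MMPs, *Plaur*, the urokinase receptor, rose from 193 ± 11.1 to 1276 ± 6.75 FPKM (log2 difference 2.72, adjusted p = 6.60e-09), 1 of 5 tested and the only call of that list in lung against PB.

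Other *Mmp* genes were scarce in sorted neutrophils of the tissue comparison, whereas *Adam15* and *Adam19* were not. None of the 20 other *Mmp* genes passed the filter for lung against PB, and 2 did for lung against BM, both lower. Of 29 other *Adam* and *Adamts* genes 4 were tested, and *Adam19* fell from 92.1 ± 1.21 FPKM in PB to 39.0 ± 0.859 in lung (log2 difference -1.22, adjusted p = 1.44e-07, and -0.60 after rescaling). *Adam15* was at 56.3 ± 0.242 FPKM in BM, 30.7 ± 1.92 in PB and 18.5 ± 0.325 in lung. Both genes had higher means than *Adam10* and *Adam17* in each tissue of this comparison. Of 7 other inhibitors only *Reck*, a membrane-anchored inhibitor of MMPs, was tested. It was at 14.3 ± 1.09 FPKM in BM, 1.94 ± 0.0947 in PB and 0.226 ± 0.0438 in lung (lung against BM -3.64, adjusted p = 2.47e-11).

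Genes with the most similar course over the 17 sorted libraries were sought among 6228 genes by Pearson correlation of log2(FPKM + 1). For *Mmp8* they were *Atxn10* (r = 0.99), *Ethe1* (r = 0.99) and the lysozyme gene *Lyz2* (r = 0.99), and for *Mmp9* *Vcp*, *Rps6ka1* and *Fermt3*. For *Mmp25* they were *Spn*, *Nxn* and *Myo5a*, and for *Adam8* *Sh2b2*, *Tjap1* and *Slc23a2*. For *Adam10* they were *Stk24*, *Ybx1* and *Adnp*, for *Adam17* *Dhx34*, *Elf2* and *Ulk2*, and for *Timp2* *Ech1*, *G6pdx* and *Plin3*. The libraries share tissue groups and 2 experiments, so these values describe the groups more than single libraries.

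The WT libraries of the *Piezo1* experiment gave lung against PB in separate samples. Lung and PB values were deposited separately, each with both genotypes, so tissue, its processing and deposit cannot be told apart in this comparison. *Adam8* was at 231 and 223 FPKM in PB and at 558 and 553 FPKM in lung, a 2.45-fold rise (log2 difference 1.29 ± 0.0248, adjusted p = 1.21e-08, and 2.00 after rescaling). *Mmp9* was at 1795 and 1794 FPKM in PB and at 966 and 965 FPKM in lung, and *Mmp8* at 745 and 745 FPKM in PB and at 431 and 418 FPKM in lung. Neither gene overlapped between tissues, which carries little weight with 2 libraries a group. The log2 differences of *Mmp9* and *Mmp8*, -0.89 ± 0.0155 and -0.81 ± 0.0223 (adjusted p = 7.32e-09 and 6.92e-08), did not pass the fold threshold. *Adam17* was at 15.8 and 14.6 FPKM in PB and at 6.60 and 7.49 FPKM in lung (log2 difference -1.01 ± 0.0808, adjusted p = 1.39e-05). Of 7 members tested 2 were called, *Adam8* and *Adam17*, against 34.0% of 7143 genes, and 6 passed by the adjusted p alone, against 89.0%. The call of *Adam17* ended without PB WT replicate 1 (-0.96), without lung WT replicate 1 (-0.93) or after rescaling (-0.36).

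The other members tested were not called in the *Piezo1* experiment. *Mmp25* was at 18.0 and 18.6 FPKM in PB and 11.3 and 10.7 in lung (-0.69, and -0.02 after rescaling). *Timp2* was at 81.6 and 78.2 FPKM in PB and 67.8 and 65.7 in lung (-0.26, turning to 0.45 after rescaling), and *Adam10* at 4.08 and 4.39 FPKM in PB and 3.71 and 3.47 in lung (-0.19, turning to 0.38 after rescaling). Levels set across the experiments, which were normalized separately, were 2.33 times as high for *Mmp8* in PB of the *Piezo1* experiment as in the tissue comparison, whereas *Adam10* in PB was 5.03 times as high in the tissue comparison. *Timp1* was listed at 0 in all 8 libraries of the *Piezo1* experiment, as were 837 genes with values above 0 in the tissue comparison. Whether these differences between experiments come from the mice or from the libraries cannot be told apart. *Plaur*, *Icam1*, *Il1r2*, *Tnf* and *Trem1* were called higher in lung here too, with log2 differences of 2.62, 4.18, 3.44, 2.74 and 2.33.

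**Figure D3:**
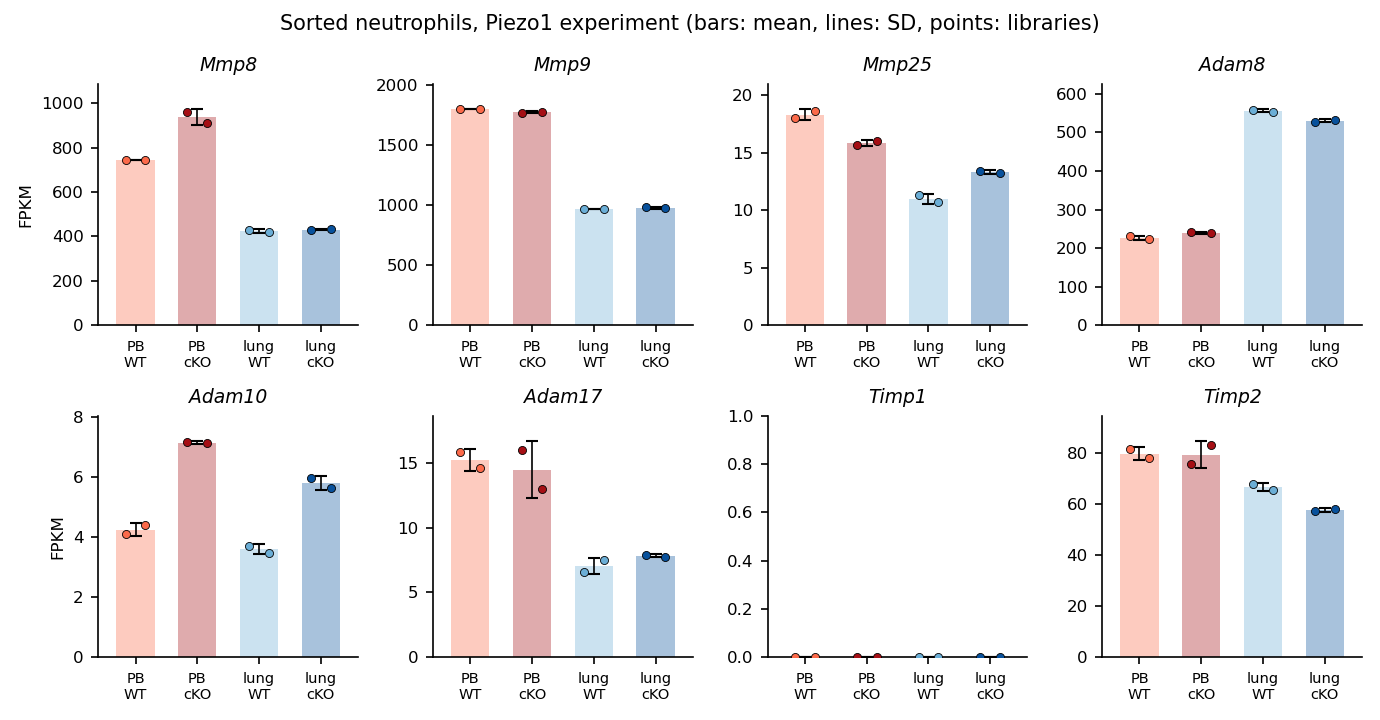
FPKM of the 8 genes (vertical axis, each panel with its own scale from 0) in sorted neutrophils of the *Piezo1* experiment from PB and lung of WT and *Piezo1*-cKO mice (horizontal axis). Bars are means, lines are SDs and points are the 2 libraries of each group. *Adam10* was higher in *Piezo1*-cKO than in WT in both tissues, and *Timp1* was listed at 0.

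For the effect of *Piezo1* deletion, the targeted gene was read first. *Piezo1* drew 5 reads in each PB WT library, 3 and 10 in PB cKO, 8 in each lung WT library and 4 to 7 in lung cKO, at no more than 0.0758 FPKM. Gene-level values do not separate the floxed exons from the rest of the transcript, and with so few reads no loss of *Piezo1* was detectable here. The paper reports efficient deletion with *Vav1*-Cre in purified BM neutrophils, by mRNA and by Western blot. Hemoglobin transcripts differed by genotype in PB. The 5 erythroid markers summed to 24.8 to 26.7 FPKM in PB WT and 1011 to 1136 in PB cKO, and to 5.11 to 5.12 in lung WT and 0.422 to 1.70 in lung cKO. Their part in the PB differences below was not tested.

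*Adam10* was higher in *Piezo1*-cKO neutrophils in both tissues. It was at 7.16 and 7.11 FPKM in PB cKO beside 4.08 and 4.39 in PB WT, and at 5.95 and 5.63 FPKM in lung cKO beside 3.71 and 3.47 in lung WT. The genotypes did not overlap in either tissue, as was the case for 6 of the 7 members tested in lung and 5 in PB. With 2 libraries a group this carries little weight, and the share over all genes is not given here. The ratio of mean FPKM was 1.68 in PB (log2 difference, cKO minus WT, 0.64 ± 0.0835, adjusted p = 0.0013) and 1.61 in lung (0.57 ± 0.0848, adjusted p = 0.00176). The values rest on 248 to 479 reads per library, and after rescaling they were 0.62 and 0.48. These differences did not pass the fold threshold.

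The MMP genes did not pass the fold threshold between genotypes. *Mmp9* was at 1767 and 1777 FPKM in PB cKO and at 982 and 972 FPKM in lung cKO, with log2 differences of -0.02 (95% interval -0.10 to 0.06) and 0.02 (-0.03 to 0.06). *Mmp8* was at 962 and 911 FPKM in PB cKO beside 745 and 745 in PB WT (0.33 ± 0.0408, adjusted p = 0.00108), and at 430 and 432 FPKM in lung cKO beside 431 and 418 in lung WT (0.02, interval -0.03 to 0.08, and -0.08 after rescaling). *Mmp25* was at 15.7 and 16.0 FPKM in PB cKO, below both WT libraries (-0.20, adjusted p = 0.0398), and at 13.4 and 13.2 FPKM in lung cKO, above both WT libraries (0.26, adjusted p = 0.0125, and 0.16 with adjusted p = 0.0718 after rescaling).

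*Adam8*, the member that was higher in lung, was at 241 and 238 FPKM in PB cKO and at 527 and 533 FPKM in lung cKO. The lung cKO libraries lay below the lung WT libraries by a log2 difference of -0.07 ± 0.0207 (adjusted p = 0.0302), a ratio of mean FPKM of 0.954, and by -0.17 (adjusted p = 0.00091) after rescaling. *Adam17* gave -0.07 (interval -0.32 to 0.17) in PB and 0.14 (-0.06 to 0.33) in lung. *Timp2* was at 57.2 and 58.2 FPKM in lung cKO, below both lung WT libraries (-0.21 ± 0.0374, adjusted p = 0.00384, and -0.31 after rescaling), and at 75.7 and 83.1 FPKM in PB cKO, around the PB WT libraries.

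No member was called between genotypes by adjusted p and fold change, where 0.995% of 6434 genes in lung and 3.65% of 7256 genes in PB were called by limma. By the adjusted p alone 4 members passed in lung and 3 in PB, where 50.7% and 49.7% of all genes passed, and the same numbers passed at an unadjusted p below 0.05 (57.4% and 56.9% of all genes). Of the related lists, none had a call in lung, and in PB *Adamts10* fell from 6.30 ± 0.144 FPKM in WT to 2.62 ± 0.0929 in cKO (log2 difference -1.01, adjusted p = 0.000404).

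The difference between the genotype effects was tested as an interaction of genotype and tissue and called on the adjusted p alone. It was called for 4 of 7 members, against 48.2% of 7560 genes, a share near that of all genes. The genotype effect in lung minus that in PB was 0.45 ± 0.0803 for *Mmp25* (adjusted p = 0.0022), -0.31 ± 0.0453 for *Mmp8* (adjusted p = 0.000918), -0.14 ± 0.0405 for *Adam8* (adjusted p = 0.0179) and -0.20 ± 0.0722 for *Timp2* (adjusted p = 0.0499). For *Adam10*, whose level was higher in cKO in both tissues, it was -0.07 (interval -0.31 to 0.17). None of the 4 exceeded a log2 difference of 1. Leaving out single libraries ended the call of *Adam8* in 4 cases (lung WT replicate 1 or 2, PB WT replicate 2, lung cKO replicate 1), with adjusted p up to 0.0749, and that of *Timp2* for each library but PB cKO replicate 1, with adjusted p up to 0.153.

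**Figure D4:**
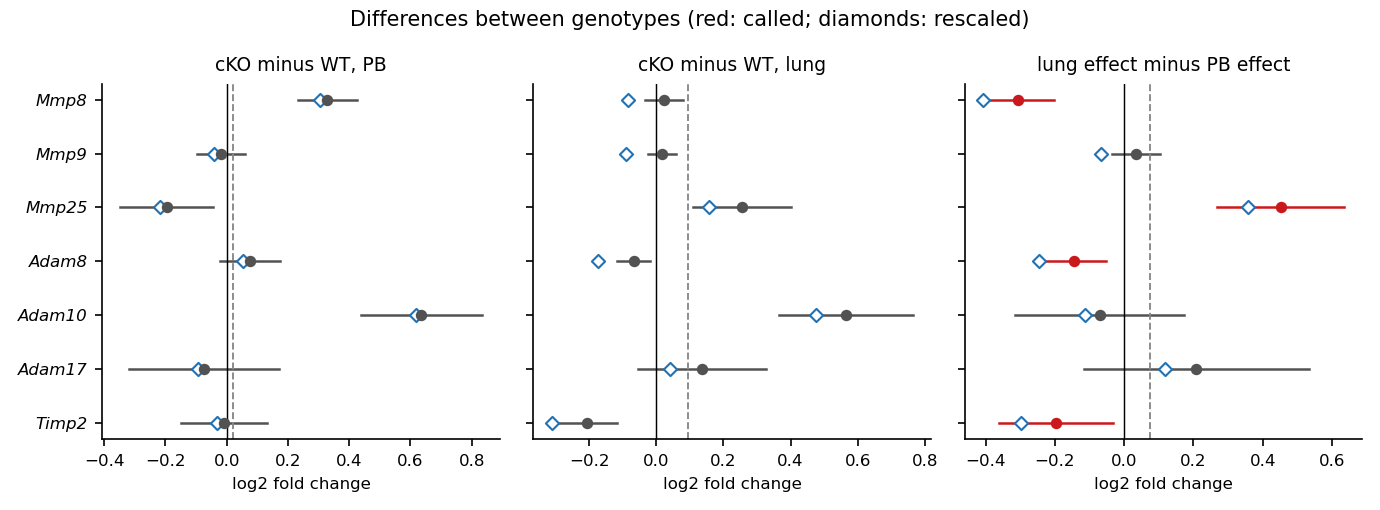
Log2 difference between genotypes (cKO minus WT, horizontal axis, on log2(FPKM + 1)) of the 7 tested genes in PB and lung, and the lung effect minus the PB effect. Filled points with lines are estimates with 95% confidence intervals (red where called, the last panel by adjusted p alone), diamonds are rescaled estimates and the dashed line is the median of all genes tested. *Adam10* lay right of 0 in both tissues at 0.64 and 0.57.

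In whole lung, a tissue of many cell types, the same genes stood in another order. In control lungs *Timp2* was highest with 148 ± 4.27 FPKM, followed by *Adam10* with 28.2 ± 4.55 and *Adam17* with 14.8 ± 1.10 (SD, n = 3 each). *Mmp9* with 8.66 ± 2.23, *Timp1* with 6.81 ± 1.73 and *Adam8* with 6.15 ± 1.18 overlapped between libraries, and *Mmp8* with 2.04 ± 0.649 and *Mmp25* with 0.547 ± 0.181 came last. Set beside sorted lung neutrophils of the tissue comparison, a separate table, *Mmp9* was 89.8 times and *Adam8* 132 times as high in the sorted cells, whereas *Timp2* was 4.19 times and *Timp1* 28.0 times as high in whole lung.

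The label of neutrophil depletion was read from marker genes. *Ly6g*, the target of the antibody, was at 0.0683, 0.577 and 0.0710 FPKM in control lungs and at 0.0748, 0 and 0.118 FPKM after PMN deletion, and these libraries overlapped. The 7 neutrophil markers summed to 203 to 257 FPKM in control lungs and 41.7 to 120 after PMN deletion, without overlap. In bulk tissue fewer cells of a type and less RNA per cell cannot be told apart from these values alone. By flow cytometry, the paper reports fewer neutrophils in lung and PB after the antibody, with monocytes unaffected. Among other cell types, the 3 B cell markers summed to 48.8 to 52.4 FPKM in control and 18.2 to 42.1 after PMN deletion, the 3 T cell markers to 8.56 to 10.3 and 5.21 to 8.11, and the 5 fibroblast markers to 275 to 310 and 195 to 256, each without overlap, and their part in the values below was not tested.

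*Mmp9* was the member with the largest difference in whole lung. It was at 11.2, 7.71 and 7.06 FPKM in control lungs and at 2.87, 1.76 and 1.72 FPKM after PMN deletion. Every library of the PMN deletion group lay below every control library, at a ratio of mean FPKM of 4.09 between control and PMN deletion. The log2 difference was -1.63 ± 0.200 (adjusted p = 0.0762), the 4th largest fall among 13990 genes tested, and it did not pass the threshold. *Mmp8* was at 2.70, 2.03 and 1.40 FPKM in control lungs and at 1.23, 1.31 and 1.29 FPKM after PMN deletion, again without overlap (-0.40 ± 0.163, adjusted p = 0.426).

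The other members overlapped between the groups. *Adam17* was at 15.7, 15.1 and 13.5 FPKM in control lungs and at 13.8, 11.6 and 11.4 FPKM after PMN deletion (-0.25 ± 0.0964, adjusted p = 0.398). *Adam8*, a neutrophil gene in sorted cells, was at 5.07, 5.95 and 7.42 FPKM in control lungs and at 5.94, 7.54 and 5.004 FPKM after PMN deletion (0.00, 95% interval -0.39 to 0.39). *Adam10* gave 0.05 (-0.25 to 0.35), *Timp1* 0.06 (-0.32 to 0.45) and *Timp2* -0.05 (-0.20 to 0.10). *Mmp25* was at 0.616, 0.683 and 0.342 FPKM in control lungs and at 0.760, 0.328 and 0.305 FPKM after PMN deletion, and did not pass the filter. Within a library the ratio of *Mmp9* to *Timp1* was 1.35 ± 0.581 in control lungs and 0.309 ± 0.130 after PMN deletion, without overlap.

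None of the 7 members tested was called by limma, where 0.00715% of 13990 genes were, which is the single gene *Aqp5*. The groups did not overlap for 2 of the 7, where this held for 17.4% of all genes, and 3 members had an unadjusted p below 0.05 (*Mmp8*, *Mmp9* and *Adam17*), where 11.2% of all genes did. The related lists had no call. Among them *Timp3*, an inhibitor bound to matrix, was at 103 ± 9.68 FPKM in control lungs and 150 ± 29.0 after PMN deletion, and *Mmp14*, a membrane-anchored collagenase, at 12.5 ± 2.12 and 8.72 ± 0.921.

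**Figure D5:**
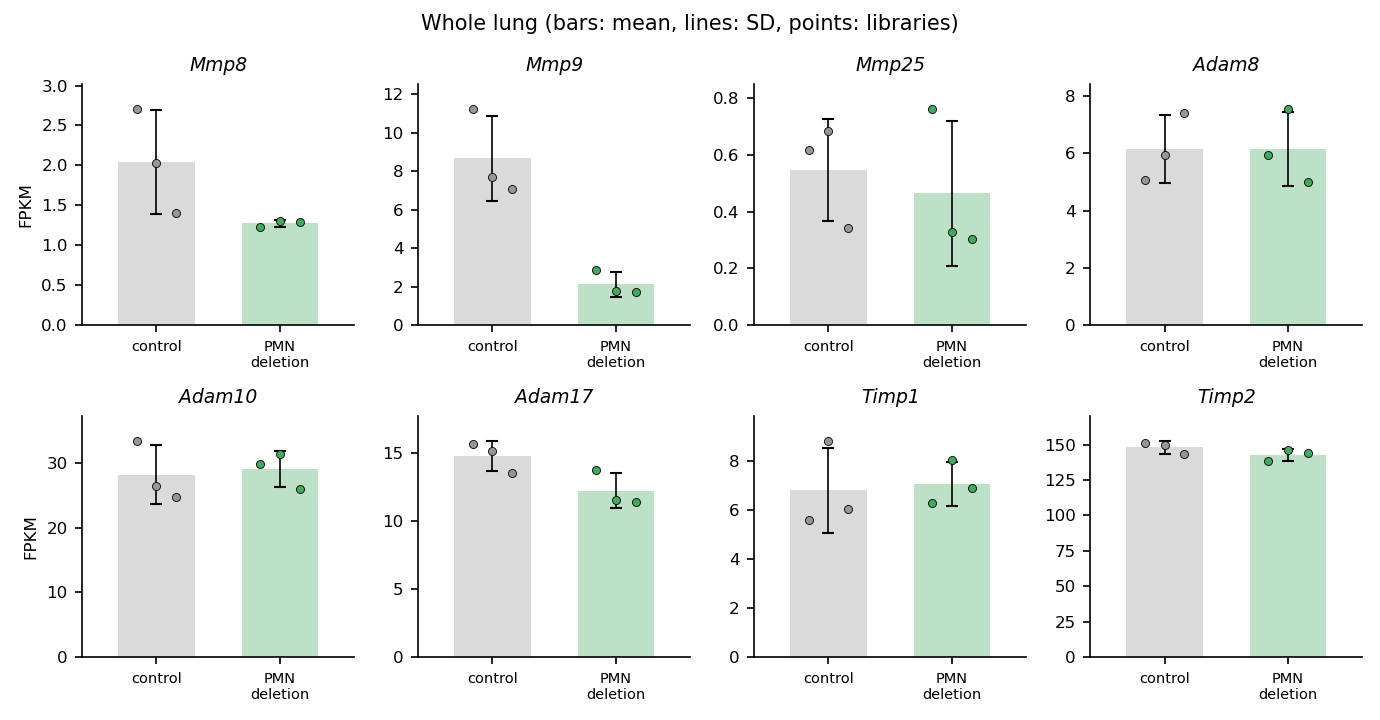
FPKM of the 8 genes (vertical axis, each panel with its own scale from 0) in whole lung of control mice and after PMN deletion (horizontal axis). Bars are means, lines are SDs and points are the 3 libraries of each group. *Mmp9* and *Mmp8* did not overlap between the groups, and the other 6 genes did.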

How the data were processed

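FPKM per gene were deposited by the authors, who trimmed 150 bp paired-end reads with fastp, aligned them with HISAT2 to mm10 and counted them with HTSeq (versions not given in the sources used here). The labels name a SMARTER mRNA kit for the libraries and the paper's methods a VAHTS Universal V6 kit. The authors' tables also hold fold changes with p values and q values, which were not used.

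Samples were grouped by the deposited labels, and each comparison used only its own libraries (the interaction used all 8 of the *Piezo1* experiment). Genes that reached an FPKM of 1 in 3 or more libraries (2 in the *Piezo1* experiment) were fitted on log2(FPKM + 1) by limma-trend (limma 3.58.1, R 4.3.3, eBayes with trend and robust), with Benjamini-Hochberg adjustment over all genes tested. A pseudocount of 1 understates changes of low genes. Calls needed an adjusted p under 0.05 and a log2 difference over 1 in size (0.5 in whole lung), and the interaction the adjusted p alone. With 2 libraries a group, standard errors rest largely on variance shared across genes. Fits of some of the comparisons were also run on simulated data, with a set spread between libraries and, for whole lung, an assumed depth. Their outcome is not used here.

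Whole reads were recovered from the FPKM for 100% of genes above 0 in sorted libraries (within 0.02 of a whole number). Whole-lung depth is unknown. A plan to use count models on these reads was replaced by limma voom, since the deposited unit is FPKM. Promoters came from RefSeq (GRCm38.p6), and gene positions from GRCm38.

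The members, the related gene lists and the rules were chosen with earlier results of these data known. Named were all members, and of each list the called genes with a mean of at least 5 FPKM in the higher group, at most 4 a direction and comparison, of which the text gives examples. *Reck* in lung against PB, *Adam15* in PB, *Rhbdf2*, *Timp3* and *Mmp14* were named after their values were seen. The 3 most similar genes per member were named by Pearson correlation. Alternatives were a pseudocount of 0.1, no filter, rescaling by the median ratio, a replicate block, all libraries in 1 fit, the adjusted p alone or with a fold threshold, voom on the recovered reads (added after the data were seen) and each library left out.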

Additional observations from a re-analysis of the deposited data

Results flagged for a closer look

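In 4 members the effect of *Piezo1* deletion differed between lung and PB by the interaction test of limma on log2(FPKM + 1), with 2 libraries a group. Over 15 settings, the main fit included, the call held in 15 for *Mmp8* and *Mmp25*, in 11 for *Adam8* and in only 5 for *Timp2*. The genotype effect in lung minus that in PB was -0.31 for *Mmp8*, 0.45 for *Mmp25*, -0.14 for *Adam8* and -0.20 for *Timp2*. *Mmp8* was higher in cKO in PB (0.33) and near level in lung (0.02). *Mmp25* was lower in cKO in PB (-0.20) and higher in lung (0.26). *Adam8* gave 0.08 in PB and -0.07 in lung, and *Timp2* -0.01 in PB and -0.21 in lung. The interaction was called for 48.2% of all genes, and the erythroid markers of PB differed between genotypes by a sum of 24.8 to 26.7 against 1011 to 1136 FPKM. Their part in the interaction was not tested.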

How the results depend on the processing

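By rescaling or voom with the median ratio, lung against PB called 1 member in place of 2 in each experiment, and voom with the median ratio called 3 in place of 5 for lung against BM. By the adjusted p alone 7 members passed for lung against PB, 6 for PB against BM, 4 and 3 for cKO against WT in lung and PB, and 6 for lung against PB in WT of the *Piezo1* experiment. With a fold threshold the interaction called 0. The log2 difference turned, given after rescaling and by voom with the median ratio, to 0.20 and 0.21 for *Mmp25* in lung against PB, to 0.39 and 0.46 for *Adam17* in lung against BM, to -0.085 and -0.10 for *Mmp8* and -0.091 and -0.10 for *Mmp9* in cKO against WT in lung, to 0.38 and 0.49 for *Adam10* and 0.45 and 0.48 for *Timp2* in lung against PB of the *Piezo1* experiment, and to -0.067 and -0.094 for *Mmp9* in the interaction. Rescaling shifts all genes of a library together.

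Leaving out single libraries gave 1 to 2 members called in lung against PB in either experiment and 2 to 5 in the interaction, with the counts elsewhere as given. It moved the PB genotype difference of *Adam17* between -0.22 and 0.071 and of *Timp2* between -0.076 and 0.057, and in whole lung *Adam8* between -0.13 and 0.13, *Adam10* between -0.034 and 0.17 and *Timp1* between -0.045 and 0.24, none of them called. The cause was not tested.

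Same-numbered libraries did not deviate together, with correlations from -0.10 to 0.09, so numbers were not taken as pairs. With a replicate block *Mmp9* in whole lung had an adjusted p of 0.0268 and 1 member was called, and *Timp2* in the interaction had an adjusted p of 0.0603. Over all alternatives, values of single members kept direction and call in 621 cases, turned in 25, lost the call in 24 and gained it in 2.

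The planned edgeR fits with TMM and RLE and the DESeq2 fit on recovered reads were not run. Low read counts limit *Timp1* in the tissue comparison and *Piezo1* in the *Piezo1* experiment, both at a few reads. Mean *Piezo1* was 0.0382 FPKM in PB WT of the *Piezo1* experiment and 0.335 FPKM in PB of the tissue comparison. FPKM already divides by depth, and the cause of this difference was not tested.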

Other observations

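Over the neutrophil libraries the share of summed FPKM taken by the 3 ADAM genes came close to that of the 3 MMP genes only in lung of the tissue comparison (0.201% against 0.239%). In lung of the *Piezo1* experiment it was 0.103% against 0.255% in WT and 0.106% against 0.278% in *Piezo1*-cKO, and in PB 0.0425% against 0.441% in WT and 0.0459% against 0.479% in *Piezo1*-cKO. *Mmp2*, which is made mainly by stromal cells, drew no more than 1 read in any library of the tissue comparison and was at 2.27 and 2.56 FPKM in PB WT, 2.50 and 2.49 in PB cKO, 0.754 and 1.31 in lung WT and 1.82 and 1.23 in lung cKO of the *Piezo1* experiment. It was named after its values were seen.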
